A study of Saccharomyces cerevisiae with 6 samples.

Results

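The cell-type specific mating genes of budding yeast (Saccharomyces cerevisiae) were followed in cultures grown with azinomycin B, a bacterial natural product known to cross-link the strands of DNA. They are 10 genes read by 11 probe sets, of 9275 probe sets on the array that are not the manufacturer's controls and 5656 genes with a probe set of their own. A probe set was taken where the platform annotation gives it the symbol of a listed gene alone. The list has 5 α-specific genes, MF(ALPHA)1, MF(ALPHA)2, STE3, SAG1 and AFB1, and 5 a-specific genes, MFA1, MFA2, STE2, BAR1 and AGA2. These genes were selected on their treated minus control differences on these same arrays, seen in earlier results, so their values at 100 and 10 µg/ml are a description and carry no test.

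Haploid yeast cells mate as a cells or as α cells. Each type secretes its own peptide pheromone, carries the receptor for the pheromone of the other type, and displays its own agglutinin, a wall protein that holds mating partners together. Regulators encoded at the mating type locus set the choice: in α cells they work with the DNA-binding protein Mcm1 to switch α-specific genes on and a-specific genes off. Diploid cells keep both sets off.

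The samples are 2 arrays of cultures given azinomycin B at 100 µg/ml (labels A100 and B100), 1 array of a culture given 10 µg/ml (label 10), and 3 control arrays without the agent, 1 for each of these labels. All cultures were shaken at 250 rpm and 30 °C in rich glucose medium (YPD) until the optical density was 1.0, and were harvested 6 h later. The agent was given in a little ethanol, and the labels do not mention ethanol for the controls. The sample annotations name neither strain, nor mating type, nor ploidy, and leave it unsaid whether each array had a culture of its own. The sample titles name no experiment: the A100 and B100 arrays are taken here as 1 experiment, and those of label 10 as another. The values are MAS5 signals, and the precision is limited by the 6 arrays.

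Median signals per array ran from 112.0 to 143.9. Over the 6956 probe sets tested, the correlation between the A100 and B100 controls was r = 0.980, and the control of label 10 correlated with them at r = 0.903 and r = 0.910. The treated A100 array stood furthest from its control: the log2 differences within pairs had an SD across probe sets of 0.84 for A100, 0.41 for B100 and 0.47 for label 10. Fold changes at 100 µg/ml are therefore also given without that array.

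The α-specific probe sets were bright and the a-specific ones dim. By mean signal the 5 α-specific genes lay between the 78.2 and 99.4 percentiles of all probe sets. The 5 a-specific genes, each on its brighter probe set, lay between the 21.6 and 55.1 percentiles. Control signals ran between 265.2 and 10916.4 for the α-specific genes and between 13.3 and 142.7 for the a-specific genes. A percentile ranks the brightness of probe sets and not amounts of transcript, since probe sets differ in how well they bind. The values come without calls of presence or absence, so whether the dim a-specific transcripts were present cannot be judged. Per array, 15.2 to 18.2% of all signals lay under 16. STE2 lay among the lowest 25% of probe sets, which were left out of the tests. BAR1 and AGA2 passed that filter only through the treated A100 array, so 9 of the 10 genes passed it with that array and 7 without it.

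**Figure D1:**
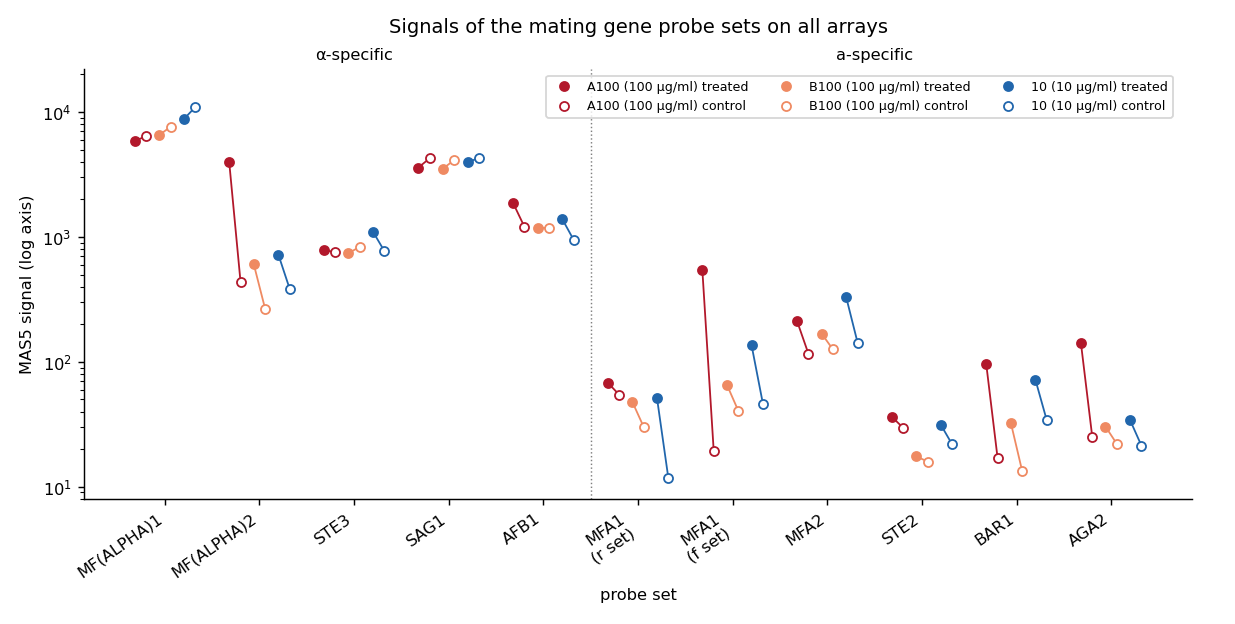
MAS5 signal (log axis) of each of the 11 probe sets on the 6 arrays, by label, with the treated array (filled) to the left of its control (open) and a line joining the pair. Levels can be compared within a probe set only. MF(ALPHA)2 and the f probe set of MFA1 stand highest on the treated A100 array, at 3975.3 and 539.5, while SAG1 lies between 3525.2 and 4300.6 throughout.

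Within pairs, all 5 a-specific genes were higher on the treated array than on the control of the same label in all 3 pairs as deposited, though STE2 in the B100 pair turned slightly lower under quantile normalization and under scaling to a common median. Of the 5 α-specific genes, 2 were higher in all 3 pairs (MF(ALPHA)2 and AFB1, the second nearly level in the B100 pair and lower there under both scalings) and 2 were lower in all 3 pairs (SAG1 and MF(ALPHA)1, the second at 0.01 in the A100 pair under quantile normalization). STE3 was mixed. Over all probe sets tested, 22.0% were higher and 12.2% lower in all 3 pairs. Fold differences here are log2 differences of signal + 16, which understates differences of dim probe sets. On that scale the median over the a-specific genes was 1.76 for A100, 0.38 for B100 and 0.81 for label 10. The α-specific genes had medians of 0.04, -0.17 and 0.50 in the same pairs, beside 0.03, 0.06 and 0.08 over all probe sets tested. Scaling every array to a common median shifts the median difference over all probe sets tested by -0.21, -0.15 and -0.14 in the 3 pairs. As total RNA of whole cultures was measured, more cells of a type and more RNA per cell cannot be told apart.

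**Figure D2:**
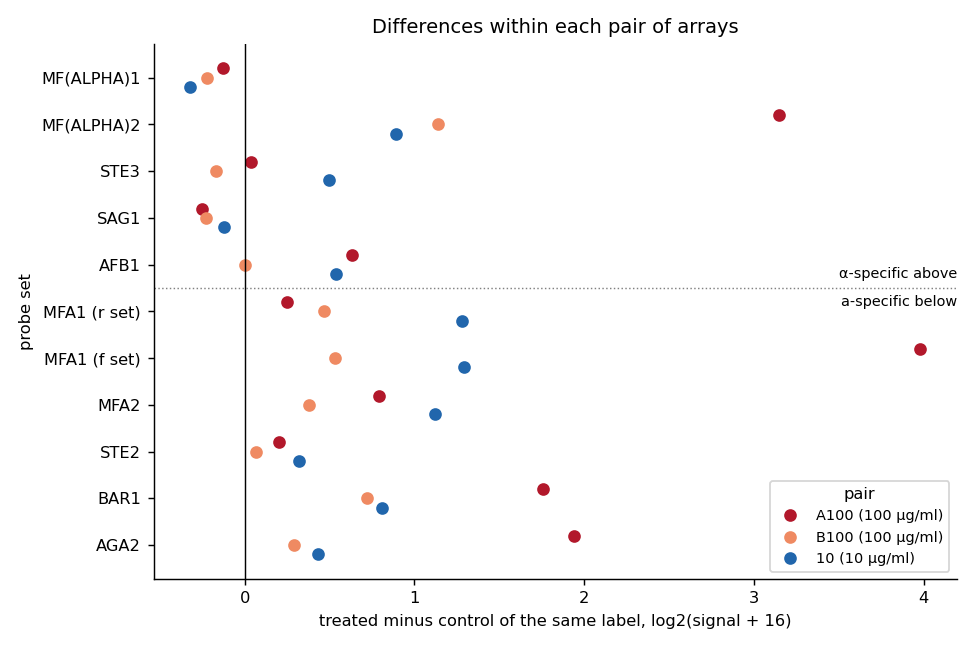
Treated minus control of the same label for the 11 probe sets, as a log2 difference of signal + 16, with 1 point per pair. All points of the a-specific probe sets lie above 0 as deposited, between 0.07 for STE2 in the B100 pair and 3.98 for the f probe set of MFA1 in the A100 pair; STE2 and AFB1 in the B100 pair lie below 0 when arrays are scaled to a common median or quantile normalized.

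Among the pheromone genes, MF(ALPHA)2, which encodes the minor precursor of α-factor, was higher on each treated array. Its signal was 3975.3 on the treated A100 array against 434.4 on the A100 control, and 602.6 on the treated B100 array against 265.2 on the B100 control. At 10 µg/ml it was 719.8 against 382.2 on the control of that label. Every treated array lay above every control, and the treated A100 array stood far above the other treated ones. The ratios of signals within pairs were 9.15 for A100, 2.27 for B100 and 1.88 for label 10. The controls averaged 360.6 ± 86.6 (SD, n = 3). On the log2 scale the A100 control lay 0.68 above the B100 control, beside a difference of 1.14 in the B100 pair. The log2 fold change at 100 µg/ml was 2.09 (SE 0.75) against all 3 controls and 0.74 without the treated A100 array. The 20 probe sets with the nearest probe set numbers, which can lie close on an array, had a median log2 difference of 0.27 and a maximum of 1.48 in the A100 pair. In that pair the f probe set of MFA1 was at 3.98, with neighbours of up to 1.93. Its r probe set was at 0.25, with the f probe set among its neighbours. BAR1 (1.76) and AGA2 (1.94) had neighbours of up to 1.78 and 3.28. The share of all probe sets that lie above their neighbours was not taken, and the members were chosen with these differences known. Nothing is therefore read from their standing among neighbours, and the part of placement was not tested.

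MF(ALPHA)1, the major α-factor gene, had no such difference. Its signal was 5851.0 and 6538.8 on the treated A100 and B100 arrays, against 6397.9 and 7611.5 on their controls. At 10 µg/ml it was 8770.6, against 10916.4 on the control of label 10. Each treated array was below its own control, with log2 differences of -0.13, -0.22 and -0.32, the A100 value turning to 0.01 under quantile normalization. The groups overlapped, since the treated array of label 10 lay above the A100 and B100 controls. At 100 µg/ml the log2 fold change was -0.39 (SE 0.29) against all 3 controls, -0.31 without the treated A100 array and -0.17 against the controls of the same experiment. Its 20 nearest-numbered probe sets had a median log2 difference of -0.51 in the A100 pair, and the part of such placement in the value was not tested.

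MFA1, a gene for the precursor of the farnesylated a-factor, has a pair of probe sets that differed in the size of the A100 value. On the f probe set, whose suffix marks probes that may also bind transcripts of related genes, the signal was 539.5 at A100 and 65.3 at B100 on the treated arrays, against 19.3 and 40.5 on their controls. It was 135.7 at 10 µg/ml against 46.1 on the control. On the r probe set, a mark for probes that did not meet all design rules, the treated arrays A100 and B100 gave 68.1 and 47.8, against 54.6 and 30.1 on their controls. That probe set gave 51.6 at 10 µg/ml against 11.8 on the control of label 10. Both probe sets were higher on the treated array of every pair, and their log2 differences were close in the B100 pair (0.53 on the f set, 0.47 on the r set) and in the pair of label 10 (1.29 and 1.28). In the A100 pair they were 3.98 and 0.25. The A100 control minus the B100 control was -0.68 on the f set and 0.61 on the r set. On either set this was larger in size than the difference in the B100 pair. At 100 µg/ml the r probe set was at 0.71 (SE 0.43) against all 3 controls, and at 0.51 without the treated A100 array, while the f probe set was at 2.09 (SE 0.78) and 0.71. Over the 6 arrays the pair of probe sets correlated at r = 0.49, as a description. The f probe set separated all treated arrays from all controls, and the r probe set did not, since the A100 control lay above 2 of the treated arrays.

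MFA2, the other a-factor gene, had signals of 212.5 and 168.3 on the treated A100 and B100 arrays, against 116.5 and 125.6 on their controls. At 10 µg/ml it had 328.7 against 142.7 on the control. All treated arrays lay above all controls, which averaged 128.3 ± 13.3 (SD, n = 3). The highest value was at 10 µg/ml and not at 100 µg/ml: the log2 difference was 1.12 for label 10, 0.79 for A100 and 0.38 for B100. Against all 3 controls the log2 fold change of MFA2 was 0.51 (SE 0.26) with 100 µg/ml, and 1.26 (SE 0.33) with 10 µg/ml. Every SE given at 10 µg/ml comes from the spread of the other arrays, since the single array at that dose was assumed to vary like them. Leaving out the treated A100 array gave 0.36 at 100 µg/ml.

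The pheromone receptors were close to their controls at 100 µg/ml. STE3, the a-factor receptor of α cells, had signals of 780.2 and 740.8 on the treated A100 and B100 arrays, against 758.0 and 832.8 on their controls, and 1098.7 at 10 µg/ml against 769.8. The 100 µg/ml arrays lay within or just below the range of the controls, and the 10 µg/ml array lay above it. The log2 fold change was -0.05 (SE 0.25) at the higher dose, where it was -0.08 without the treated A100 array, and 0.47 (SE 0.31) at the lower one. STE2, the α-factor receptor of a cells, had 36.4 and 17.5 on the treated A100 and B100 arrays, against 29.7 and 15.9 on their controls, and 31.3 at 10 µg/ml against 21.8. These signals are near the low end of the array, and the A100 and B100 controls alone differed by 0.52 on the log2 scale, more than any of the 3 pair differences (0.20, 0.07 and 0.32).

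BAR1 encodes the protease that a cells secrete to degrade α-factor. Its signals were 95.5 and 32.4 on the treated A100 and B100 arrays, against 16.9 and 13.3 on their controls. At 10 µg/ml it had 71.6 against 33.9 on the control of label 10. Each treated array was over its own control by a ratio of 5.65, 2.44 and 2.11 in the A100, B100 and label 10 pairs, but the treated B100 array lay just below the control of label 10, so the groups overlapped. The log2 fold change at 100 µg/ml was 1.01 (SE 0.44) against all 3 controls, 1.24 against the controls of the same experiment and 0.41 without the treated A100 array.

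The factor that blocks a-factor, AFB1, is made by α cells. It had 1867.2 and 1182.5 on the treated A100 and B100 arrays, against 1204.4 and 1181.1 on their controls, and 1387.9 at 10 µg/ml against 946.9. The B100 pair was level while the other pairs differed by 0.63 (A100) and 0.54 (label 10) on the log2 scale. AFB1 was at 0.42 (SE 0.31) at 100 µg/ml against all 3 controls, and at 0.10 without the treated A100 array.

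The agglutinin genes differed in sign. AGA2, the binding subunit of a-agglutinin, had 142.0 and 30.3 on the treated A100 and B100 arrays, against 25.1 and 22.0 on their controls, and 34.1 at 10 µg/ml against 21.3. All treated arrays lay above all controls, by a small margin except on A100. The 3 controls were close together (22.8 ± 2.02, SD, n = 3), and the log2 fold change at 100 µg/ml was 1.14 (SE 0.51) with the treated A100 array and 0.26 without it. SAG1, the agglutinin of α cells, had 3595.5 and 3525.2 on the treated A100 and B100 arrays, against 4272.7 and 4139.3 on their controls, and 3952.5 at 10 µg/ml against 4300.6. All treated arrays lay below all controls as deposited, by log2 differences of -0.25, -0.23 and -0.12 within pairs. Under quantile normalization these differences were -0.21, -0.10 and -0.05. The 10 µg/ml array was then at 0.04 against the mean of all 3 controls, so the separation did not hold. SAG1 had the most even controls (4237.5 ± 86.2, SD, n = 3), and its value at 100 µg/ml was -0.25 (SE 0.22) with the treated A100 array and -0.26 without it.

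Counted over the members, 4 of 10 (MF(ALPHA)2, MFA1, MFA2 and AGA2) had both 100 µg/ml arrays above all 3 controls and 1 (SAG1) had both below. Over all probe sets tested these shares were 12.3% and 7.58%. Of the 9 genes past the filter 4 lay above, with AGA2 past it only through the treated A100 array. MFA1 is counted on its f probe set. Without the treated B100 array 7 of 10 lay above all controls, where the treated A100 array alone did so at 31.1% of all probe sets tested. The 10 µg/ml array lay above all 3 controls at 8 of 10 and below them at 1 (SAG1, as deposited), beside 33.1% and 21.7% of all probe sets tested. All 3 treated arrays lay above all 3 controls at 4 of 10 and below at 1 (SAG1, as deposited), beside 6.04% and 2.96%. A difference of at least 2-fold on the scale of signal + 16 toward higher treated signals was reached by 4 genes for A100, 1 for B100 and 2 for label 10, and toward lower ones by 0 in each pair. The background for higher is 10.7%, 2.06% and 2.1%, and for lower it is 6.12%, 0.661% and 2.4%. Since the genes were chosen with these differences known, nothing is read from these counts. For the same reason the medians of 1.01 over the a-specific and -0.05 over the α-specific genes at 100 µg/ml, beside 0.05 over all probe sets tested, are a description. Without the treated A100 array they were 0.36 and -0.08, beside 0.04. With 1 mean per group, limma called 0.0% of the 6956 probe sets at an adjusted p under 0.05 at either dose (Benjamini-Hochberg), with 232 at an unadjusted p under 0.05 at 100 µg/ml and 291 at 10 µg/ml. Those counts were 30 without the treated A100 array and 676 without the treated B100 array at 100 µg/ml. At 10 µg/ml they were 94, 133 and 1579 without the A100 control, the B100 control and the control of label 10. Without the control of label 10, limma called 4 probe sets at 10 µg/ml.

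Untreated levels are given next, for how far the members vary between cultures without the agent. The control signals were in view when the genes were chosen, so the members' values are again a description. The control of label 10 was compared with the A100 and B100 controls in a limma fit across all 6956 probe sets, with its 1 array assumed to vary like the others. It called 0.0% of the probe sets after Benjamini-Hochberg adjustment, with 1484 at an unadjusted p under 0.05 (602 to 2551 with 1 array left out). MF(ALPHA)1 had 10916.4 in the control of label 10 against 6397.9 and 7611.5 in the other controls, a log2 difference of 0.64 (SE 0.28). The r probe set of MFA1 had 11.8 against 54.6 and 30.1, a difference of -1.04 (SE 0.41), while its f probe set was at 0.48 (SE 1.09). BAR1, which entered this fit only through its signal on the treated A100 array, was at 0.68 (SE 0.54). SAG1 and STE3 had the smallest differences, 0.03 (SE 0.26) and -0.04 (SE 0.27), with signs that turned under other settings. The number of probe sets called became 1412 without the treated A100 array and 1442 without the treated B100 array.

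**Figure D3:**
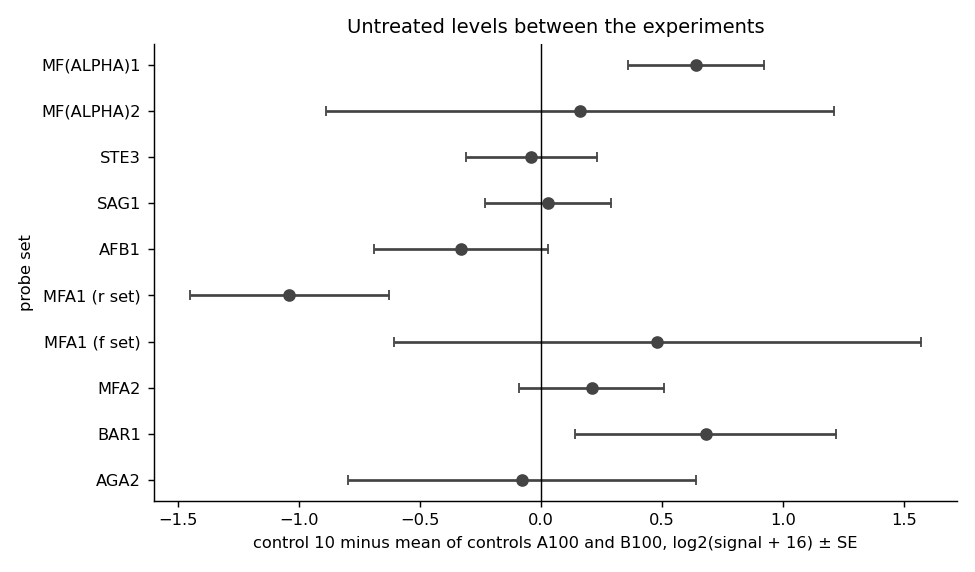
Control of label 10 minus the mean of the A100 and B100 controls for the 10 member probe sets above the filter, as a log2 difference of signal + 16 with its limma standard error. MF(ALPHA)1 (0.64) and the r probe set of MFA1 (-1.04) lie furthest from 0 in units of their error.

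Other genes of mating were taken in full from lists. The further a-specific genes are STE6, the exporter of a-factor, and ASG7. STE6 had 102.4 and 96.7 on the treated A100 and B100 arrays, against 104.7 and 73.6 on their controls, and 43.9 at 10 µg/ml against 62.1 on the control. The 10 µg/ml array lay below all 3 controls for STE6, and above all 3 for the 5 a-specific members, with MFA1 on its f probe set. On the r probe set of MFA1 it lay below the A100 control (51.6 against 54.6). ASG7, under the filter, had 41.8 and 13.1 against 5.4 and 7.8 at 100 µg/ml, and 7.8 against 9.6 at 10 µg/ml. The summed signal of the 7 markers of a cells (these and the a-specific members) was 1170.1 and 423.6 on the treated A100 and B100 arrays. It was 653.1 on the array of 10 µg/ml, against 298.7 to 337.5 on the controls. Such sums are carried by the brightest probe sets. The f probe set of MFA1 gave 539.5 on the treated A100 array, and MFA2 gave 328.7 at 10 µg/ml. The members in the sums were chosen with these differences known, so the sums are a description. The 5 measured markers of α cells summed to 16069.2 and 12589.9 with 100 µg/ml and 15929.5 with 10 µg/ml, against 13067.4 to 17315.9. The sums of the 8 sporulation markers were 710.0 and 724.2 with 100 µg/ml and 537.9 with 10 µg/ml, against 530.8 to 730.2. Those of the 10 genes used by both haploid types were 4135.3, 5763.3 and 5731.7 on the same treated arrays, against 5818.5 to 6666.4. RME1 alone gave 3398.2 to 3769.5 of these sums on the controls. Of the 9 haploid genes tested, 7, 4 and 6 were higher on the treated array for A100, B100 and label 10. Their median log2 differences were 0.20, -0.05 and 0.06 in these pairs.

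Of 15 genes that pheromone induces 13 were tested, and 11, 9 and 11 of these were higher on the treated array for A100, B100 and label 10. None passed the limma test at either dose (adjusted p = 0.957 for each named below at 100 µg/ml). At 100 µg/ml 10 were positive and 3 negative, with a median of 0.46 and of 0.03 without the treated A100 array. Within pairs the medians were 0.70, 0.24 and 0.44 for A100, B100 and label 10, beside 0.03, 0.06 and 0.08 over all probe sets tested. Of the 13 genes, 8 were higher in all 3 pairs. Both 100 µg/ml arrays lay above all 3 controls at 5 of the 13 and below at 1, beside the 12.3% and 7.58% over all probe sets tested, and 22.0% of these were higher in all 3 pairs. KAR4, a transcription factor of the mating response, had 295.7 and 97.5 on the treated A100 and B100 arrays, against 60.9 and 75.4 on their controls, and 152.6 at 10 µg/ml against 88.8. All treated arrays were above all controls (log2 fold change 1.06, SE 0.46, at 100 µg/ml, and 0.33 without the treated A100 array). FUS1, a membrane protein of cell fusion, had 309.8 and 171.4 against 146.5 and 126.9 on the controls of the 100 µg/ml pairs, and 188.8 against 153.1 at 10 µg/ml (0.65, SE 0.32, and 0.25 without the treated A100 array). KAR5, which acts in nuclear fusion, was at 0.69 (SE 0.37), at 0.65 without the treated A100 array and at 0.38 against the controls of the same experiment. AGA1, the anchor of AGA2 on the wall and named here after its values were seen, had 2092.7 and 583.3 on the treated A100 and B100 arrays, against 804.3 and 713.3. It was 810.6 at 10 µg/ml against 474.7, so the B100 pair ran the other way.

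The pheromone signalling pathway, the processing enzymes and the regulators of cell type had medians at 100 µg/ml of 0.12, 0.06 and -0.11. Without the treated A100 array these were -0.01, 0.01 and -0.08, beside the 0.03 of the pheromone-induced genes. None of the 16 tested signalling genes passed at either dose, 9 being positive and 7 negative at 100 µg/ml. Both 100 µg/ml arrays lay below all controls for STE20, a kinase of the pathway, which was at -0.75 (SE 0.27) and at -0.71 without the treated A100 array. Its signals were 130.5 and 138.1 on the treated A100 and B100 arrays, against 269.2 and 197.9 on their controls, and 282.5 at 10 µg/ml against 246.2. MSG5, a phosphatase that turns the pathway down, was at -0.36 (SE 0.25), at -0.31 without the treated A100 array, and lower in all 3 pairs. Of the 10 tested genes of pheromone processing and export 6 were positive and 4 negative, none passed, and none had both 100 µg/ml arrays outside the range of the controls. Of 13 regulators of cell type and silencing, 5 genes of the mating type cassettes have only probe sets that the annotation gives to several genes and were not read. None of the 6 tested regulators passed (3 positive, 3 negative). RME1, a repressor of entry into meiosis, was at -0.66 (SE 0.35) and at -0.14 without the treated A100 array, and the silencing gene SIR4 was at -0.33 (SE 0.27) and at -0.20 without the treated A100 array. MCM1, named here after its values were seen since its product binds at both classes of genes, had 455.5 and 960.8 on the treated A100 and B100 arrays, against 1055.7 and 962.6 on their controls, and 898.5 at 10 µg/ml against 890.1.

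**Figure D4:**
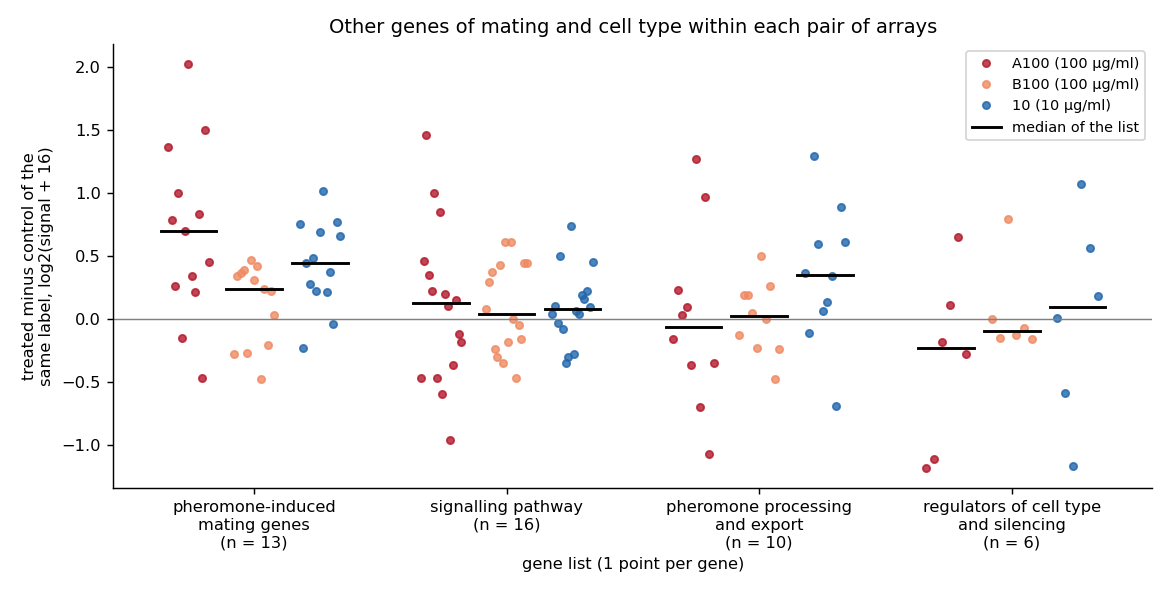
Treated minus control of the same label, as a log2 difference of signal + 16, for the tested genes of 4 further lists, 1 point per gene and pair, with the median as a bar. The pheromone-induced genes have medians of 0.70, 0.24 and 0.44 in the A100, B100 and label 10 pairs, and the signalling genes have 0.12, 0.04 and 0.07.

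Likeness of pattern was measured as Pearson's r of log2(signal + 16) over the 6 arrays. These include 3 pairs by label and, as taken here, 2 experiments. The candidates were 2880 probe sets with 1 gene name and a log2 range of at least 1. The highest of many candidates over few arrays were taken, so these values are a description. MFA1 (f probe set) was most like KAR4 (r = 0.997), RPL16B (0.989) and RAX2 (0.987), all of them highest on the treated A100 array and next on the 10 µg/ml array. MF(ALPHA)2 was most like FUS1 (r = 0.993), IMD2 (0.993) and YCR043C (0.985). MFA2 was most like MET7 (r = 0.971), POP7 (0.963) and LDB18 (0.956), which like it were highest at 10 µg/ml. MF(ALPHA)1 was most like ALT2 (r = 0.993), IGO1 (0.988) and CDC31 (0.983). These were highest in the control of label 10, and each treated array lay below its own control.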

How the data were processed

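Transcript levels were read on 6 arrays of 1 colour. Each deposited value is an intensity, the MAS5 signal of a probe set before any logarithm. The authors used MAS5 according to the submitters' processing notes, with no version or settings given. The 2% trimmed mean was between 500.32 and 500.40 on every array, so no further scaling was applied. The 60 control probe sets of 9335 were left out, and of the other 9275 the 25% with the lowest mean log2 value, which left 6956. Of the 9275, the platform annotation gives 1 gene name to 6504, several to 328 and none to 2443.

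Values were analysed as log2(signal + 16) with limma 3.58.1 in R 4.3.3 (moderated two-sided tests, variance trend, Benjamini-Hochberg adjustment over all probe sets tested, threshold 0.05). Doses were set against all 3 controls with 1 mean per group. Controls were compared in a fit with separate means for the treated and control arrays of each experiment, A100 and B100 being taken as 1 experiment. A gene with several probe sets is represented in counts by the brightest. P-values reflect the spread of these arrays, which may be technical.

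The members, lists and alternatives were chosen with earlier results of these data known. The rule for names took every member, then from each list up to 3 genes with the largest change at 100 µg/ml among those with both arrays on one side of all controls, and the 3 genes most like each pheromone gene.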

Additional observations from a re-analysis of the deposited data

How the results depend on the processing

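At 100 µg/ml limma called 0 probe sets under every alternative run, with 232 at an unadjusted p under 0.05 as reported. At 10 µg/ml it called 0, and 0 to 4 with 1 array left out, the 4 arising without the control of label 10. For the control of label 10 against the other controls the count of 0 became 9 with median scaling, 5 with a pseudocount of 64, 4 without probe sets numbered 7600 to 8500 (chosen after seeing the data) and 720 in the additive fit of experiment and treatment. It ran between 0 and 1442 with 1 array left out. It was 1412 without the treated A100 array and 1442 without the treated B100 array, where the spread comes from the A100 and B100 controls alone. In that comparison MF(ALPHA)2 turned to -0.47 and STE3 to 0.24 in the additive fit, where the f probe set of MFA1 was at -0.01. With 1 array left out MF(ALPHA)2 ran between -0.18 (without the B100 control) and 0.50, STE3 ran between -0.11 and 0.02 (without the B100 control), and SAG1 was at -0.09 with median scaling. The cause of these turns was not tested. The count of 4 members above all controls on both 100 µg/ml arrays became 2 of 6 with the lowest 50% of probe sets left out, as fewer members were counted, and ran between 4 and 7 with 1 array left out. The 7 members higher in all 3 pairs were 5 with quantile normalization and with median scaling. With the array label as a replicate block, limma called 0 probe sets for either dose. Treated and control arrays were paired by their label names. The A100 minus B100 differences of treated and control arrays correlated at r = -0.071. This value cannot decide whether arrays of a label belong together, since the A100 and B100 controls were nearly alike (r = 0.980) and the treated A100 array stood apart. Large differences from a signal near the low end depend most on the pseudocount. Over the pseudocounts and scalings the f probe set of MFA1 in the A100 pair ran between 2.86 and 4.73. BAR1 ran between 0.98 and 2.43 there, AGA2 between 1.21 and 2.45, and STE2 between 0.05 and 0.28. The r probe set of MFA1 in the pair of label 10 ran between 0.61 and 2.04.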
